A study of Mus musculus with 6 samples.

Results

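The 39 genes described here build the mechanosensory hair bundle and the synapses of inner ear hair cells. They comprise regulators of hair cell identity, the transduction channel complex, tip link and Usher proteins, stereocilia proteins, outer hair cell proteins, ribbon synapse proteins and the acetylcholine receptor of efferent synapses. Members were taken by gene symbol from the deposited count table, in which each of the 39 had 1 row among 55401 genes. Of the 39, 35 passed the filter on low counts and were tested, and Atoh1, Ush1g, Grxcr1 and Myo3a did not pass and are given as counts only.

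Bulk RNA sequencing of mouse inner ear covered 3 wild-type libraries (WT) and 3 libraries from mice mutant for the X-linked transcription factor Pou3f4, labelled Pou3f4y/- (KO). Strain, age and dissection are not given in the labels, nor is the lesion in the allele. Sex has no field of its own, but the KO label is written as that of a hemizygous male. Every library is described as inner ear cells of all types, although a further field names interstitial cells. The labels do not say whether libraries came from separate animals, so p-values measure only the spread between these samples, which may be technical. The comparison was designed to look into pigmentation of the mutant ear.

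Total counts ranged from 18409409 to 23323953 per library. Counts of Pou3f4 were 1044, 2140 and 2233 in the WT libraries (replicates 1 to 3, the order used throughout) and 45, 28 and 30 in the KO libraries, so the targeted gene matches the labels. Xist, transcribed from an inactive X, held 11165, 9143 and 6 counts in WT and 1, 15783 and 15119 in KO. The Xist counts of KO replicates 2 and 3 go against the male genotype in their label, and both genotypes mix libraries with and without Xist. WT replicate 1 stood apart in the genes described here, and its values are given separately below.

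Hair cells turn sound and head movement into electrical signals through a bundle of actin-filled stereocilia. Tip links made of cadherin 23 and protocadherin 15 pull on transduction channels formed by TMC proteins with TMIE, LHFPL5 and CIB2, and calcium entry at the base of the cell then drives glutamate release at ribbon synapses. Mutations in most of these genes cause deafness, and several of the Usher genes also affect the retina. In bulk tissue, fewer hair cells and less RNA per hair cell cannot be told apart, so each level below is that of the whole ear.

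No member passed the threshold in the comparison of KO with WT (edgeR, adjusted p under 0.05 over 19687 genes). The background was 0.396% of all genes tested, 0.213% higher and 0.183% lower in KO. At an unadjusted p under 0.05 there were 4 members of 35, against 19.6% of all genes. DESeq2 called 1 of the 32 members to which it gave an adjusted p, Tmie, against 9.03% of all genes with one in either direction, 3.61% higher and 5.43% lower. Fitted changes were below 0 for 20 of 35 members and above 0 for 15, with a median log2 fold change (KO over WT) of −0.07, against −0.01 over all genes tested, of which 51% were below 0. The libraries of the groups did not overlap for 4 members. All KO libraries lay above all WT libraries for Tmie (15% of all genes) and below them for Cib2, Tprn and Chrna9 (12.7% of all genes).

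**Figure D1:**
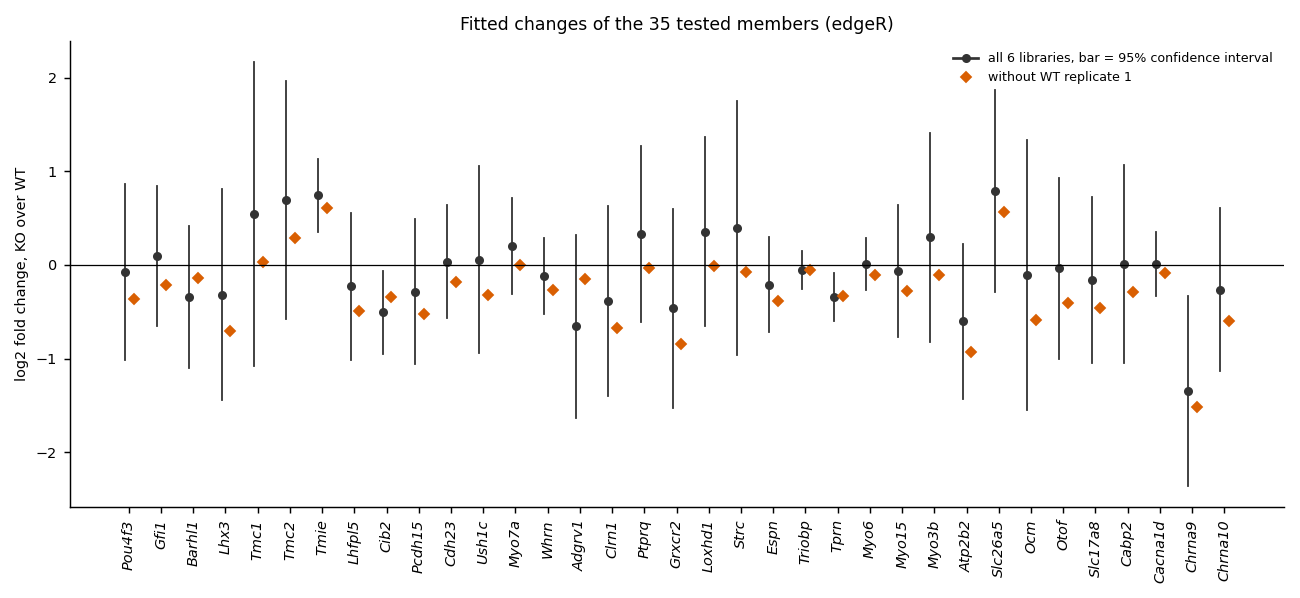
Fitted log2 fold changes, KO over WT, of the 35 tested members in the order of their roles (edgeR). Black points with bars are values from all 6 libraries with 95% confidence intervals not adjusted for the number of genes, and orange diamonds are values without WT replicate 1; Tmie (0.74) and Slc26a5 (0.79) lie highest and Chrna9 (−1.34) lowest, and without WT replicate 1 most values shift downwards.

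The WT libraries spread far more than the KO libraries. The median coefficient of variation over the tested members was 48.2% in WT and 14.2% in KO, against 17.3% and 7.69% over all genes tested. Without WT replicate 1 the WT value was 20.1% for the members and 9.40% for all genes. For Otof, for example, the log2 fold change was −0.04 with a 95% interval from −1.0 to 0.92, so changes of nearly 2-fold in either direction lie within it.

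Levels differed widely among members. CPM, the count scaled to library size with TMM factors, was divided by exon length to give RPKM for the comparison between genes, as the mean of both groups. Ocm, the small calcium-binding protein oncomodulin, was the most abundant at 14.2 RPKM. It was followed by Cib2 at 8.30, the minus-end-directed motor Myo6 at 8.04, the taper protein gene Tprn at 5.21 and the rootlet protein gene Triobp at 3.88 RPKM. At the other end stood Myo3a at 0.0177 RPKM, the Usher scaffold Ush1g at 0.0625 and the giant ankle link receptor Adgrv1 at 0.0995 RPKM. Myo6 and Triobp alone supplied 22.3% to 26.3% and 9.67% to 16.1% of the members' counts in each library. Both are used by many cell types outside the sensory epithelium.

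**Figure D2:**
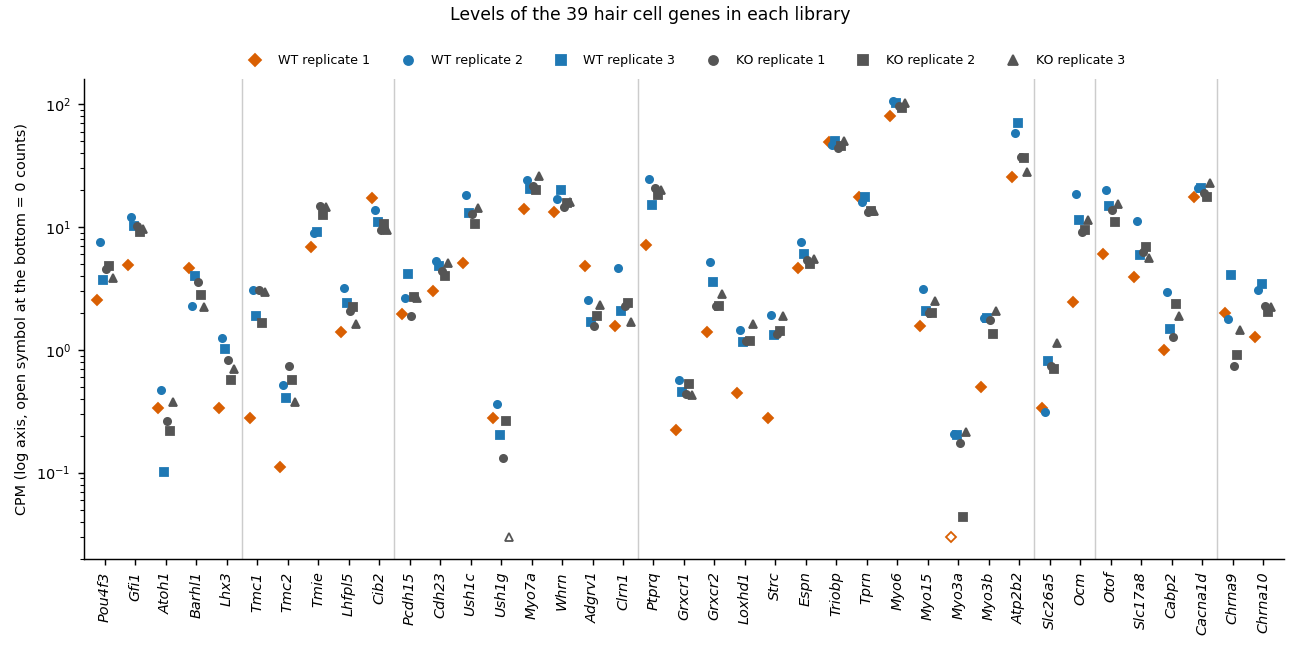
CPM of all 39 members (log axis, not divided by length) in each library, grouped by role from identity factors at the left to the efferent receptor at the right; open symbols at the bottom are counts of 0. WT replicate 1 (orange) lies lowest for most members, for example 0.279 CPM of Tmc1 against 1.66 to 3.08 CPM elsewhere.

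Among the identity factors, Pou4f3, the POU-domain regulator needed for hair cell survival, stood at 2.57, 7.61 and 3.71 CPM in WT. It stood at 4.53, 4.84 and 3.84 CPM in KO, inside the WT range (log2 fold change −0.07, SE 0.39, adjusted p = 0.938). Gfi1, a zinc-finger repressor that acts downstream of Pou4f3 and also in developing neutrophils, stood at 4.92, 12.1 and 10.1 CPM in WT. Its KO levels of 10.3, 9.15 and 9.57 CPM lay between those of WT replicates 1 and 2. Barhl1, a homeobox factor of hair cells and of cerebellar neurons, stood at 4.64, 2.29 and 3.97 CPM in WT and 3.57, 2.79 and 2.22 CPM in KO, and was highest in WT replicate 1. Lhx3, a LIM-homeobox factor, stood at 0.335, 1.25 and 1.02 CPM in WT and 0.827, 0.566 and 0.703 CPM in KO. Atoh1, the factor that starts hair cell differentiation, held 6, 9 and 2 counts in WT and 6, 5 and 7 in KO, at most 0.469 CPM. Adjusted p-values of the 4 tested factors were 0.584 to 0.938.

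The transduction complex held the member with the clearest separation of the groups. Tmie, a membrane protein that the channel needs to open, stood at 6.87, 9.02 and 9.10 CPM in WT and 14.8, 12.5 and 14.7 CPM in KO. Every KO library was above every WT library. Group means were 8.33 ± 1.26 CPM for WT and 14.0 ± 1.30 CPM for KO (SD over 3 libraries), a fitted 1.67-fold difference (log2 fold change 0.74, SE 0.16). It did not pass with edgeR (adjusted p = 0.106) and passed with DESeq2 (adjusted p = 0.0039). Without WT replicate 1, the lowest library, the log2 fold change was 0.61 and it passed with edgeR (adjusted p = 0.0399, against 9.06% of all genes called in that fit). Over the 15 alternatives the log2 fold change ranged from 0.61 to 0.82 and the adjusted p from 0.0039 to 0.438.

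Tmie (ENSMUSG00000049555, mm10 chromosome 9, 110865711 to 110880113, minus strand) shares 7.89% of its exon length with Als2cl on the opposite strand. Als2cl held 430, 340 and 410 counts in WT and 429, 481 and 395 in KO, and the part of shared reads in the level of Tmie was not tested. Among libraries with Xist reads, Tmie stood at 6.87 and 9.02 CPM in WT and 12.5 and 14.7 CPM in KO. In the libraries without them its level was 9.10 CPM (WT) and 14.8 CPM (KO). In a fit that included Xist status the log2 fold change was 0.75 and the adjusted p 0.20 (edgeR), and that fit called 0 of 19687 genes.

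The channel subunit Tmc1 did not separate the groups, at 0.279, 3.08 and 1.88 CPM in WT and 3.05, 1.66 and 2.97 CPM in KO (log2 fold change 0.54, SE 0.68, adjusted p = 0.69). WT replicate 1 held only 5 Tmc1 counts (95% exact Poisson interval 1.62 to 11.7, counting error only), against 37 to 70 in the other libraries. Without that library the log2 fold change was 0.03. Tmc2, which in the mouse cochlea precedes Tmc1 during maturation, held 2, 10 and 8 counts in WT and 17, 13 and 7 in KO. Per length, Tmc1 stood at 0.299 RPKM and Tmc2 at 0.141 RPKM, and the ratio of Tmc1 to Tmc2 counts was 2.5, 5.90 and 4.63 in WT and 4.12, 2.92 and 7.86 in KO. The ratio overlapped between the groups.

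Lhfpl5, which couples the tip link to the channel, stood at 1.40, 3.18 and 2.39 CPM in WT and 2.09, 2.22 and 1.62 CPM in KO, within the WT range. Cib2, a calcium-binding subunit that is transcribed well outside hair cells, showed the opposite order to Tmie. Its levels were 17.2, 13.7 and 11.03 CPM in WT and 9.49, 10.5 and 9.46 CPM in KO, every KO library below every WT library (log2 fold change −0.51, SE 0.19, adjusted p = 0.208). Cib2 shares 15.8% of its exon length with Sh2d7 on the opposite strand, so its level is uncertain. Sh2d7 held 53, 35 and 31 counts in WT and 32, 26 and 19 in KO. Scaled to library size, Sh2d7 was lower in every KO library than in every WT library, as was Cib2. Within WT the order of the libraries also matched that of Cib2, and within KO it did not. The part of shared reads in the level of Cib2 was not tested.

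**Figure D3:**
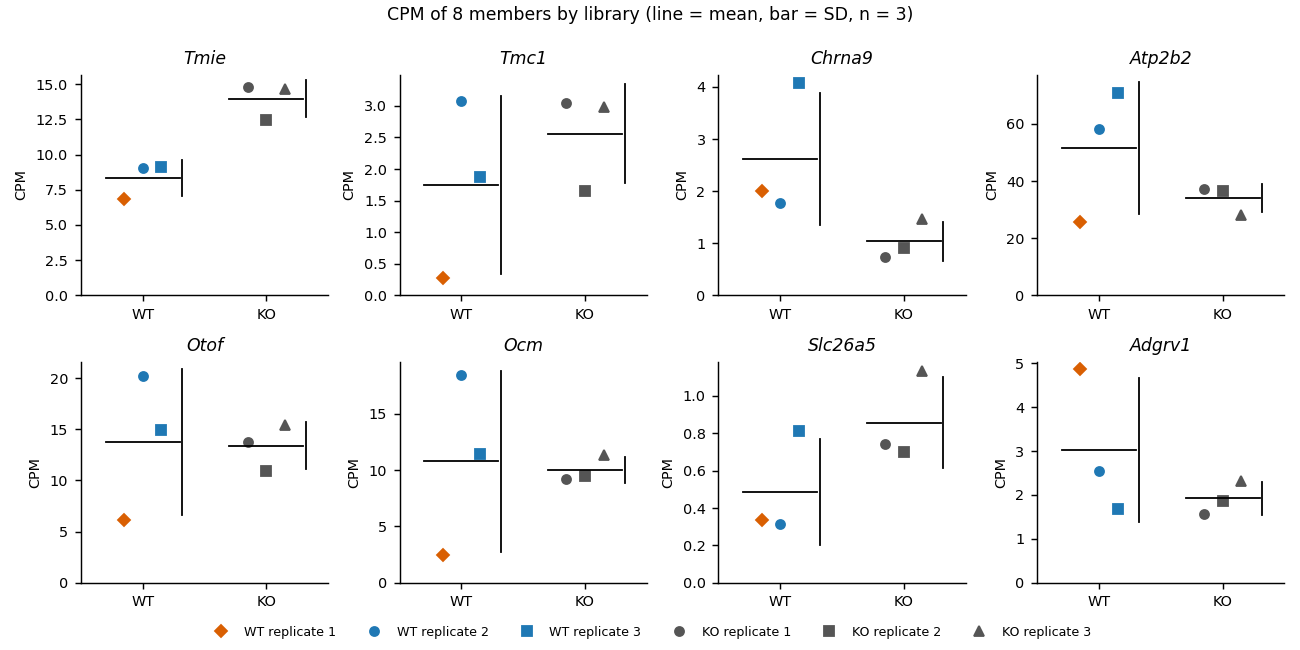
CPM of 8 members in each library, with the mean (horizontal line) and SD (vertical bar) of 3 libraries per genotype and every axis starting at 0. The groups do not overlap for Tmie and Chrna9, while WT replicate 1 (orange) is far below the other libraries for Tmc1, Otof and Ocm and above them for Adgrv1.

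The promoter sequences of 4 members are shown as examples. Tmie and Chrna9 separate the groups, as do Cib2 and Tprn, which are not printed. Tmc1 and Ush1c were low together in WT replicate 1, as were other members. Each is the 250 bases before the start site in RefSeq (GRCm38.p6), 5′ to 3′ on the strand of the gene, with matches to CAGCTG in capitals. CAGCTG, a palindrome, is a form of the E-box that Atoh1 and related factors can bind.
Tmie, chr9:110880074-110880323, minus strand: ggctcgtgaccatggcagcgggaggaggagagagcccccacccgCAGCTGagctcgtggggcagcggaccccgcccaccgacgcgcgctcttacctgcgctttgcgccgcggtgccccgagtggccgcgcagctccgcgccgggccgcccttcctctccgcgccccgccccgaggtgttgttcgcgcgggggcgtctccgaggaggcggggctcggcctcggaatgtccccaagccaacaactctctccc
Chrna9, chr5:65966874-65967123, plus strand: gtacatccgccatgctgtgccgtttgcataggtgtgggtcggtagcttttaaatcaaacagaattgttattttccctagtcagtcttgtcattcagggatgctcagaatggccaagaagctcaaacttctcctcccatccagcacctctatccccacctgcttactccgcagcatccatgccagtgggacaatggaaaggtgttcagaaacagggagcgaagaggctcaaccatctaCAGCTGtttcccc
Tmc1, chr19:20954203-20954452, minus strand: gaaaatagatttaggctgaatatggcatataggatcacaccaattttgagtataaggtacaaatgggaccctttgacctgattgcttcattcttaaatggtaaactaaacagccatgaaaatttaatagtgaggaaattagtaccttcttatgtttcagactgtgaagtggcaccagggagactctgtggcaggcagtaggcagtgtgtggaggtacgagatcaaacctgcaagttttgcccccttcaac
Ush1c, chr7:46238491-46238740, minus strand: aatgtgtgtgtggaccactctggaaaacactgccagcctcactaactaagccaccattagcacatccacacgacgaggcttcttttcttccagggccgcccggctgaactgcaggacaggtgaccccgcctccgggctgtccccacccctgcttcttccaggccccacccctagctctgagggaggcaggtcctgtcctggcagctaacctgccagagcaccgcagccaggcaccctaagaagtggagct

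The E-box begins 206 bases before the start site of Tmie and 13 bases before that of Chrna9. The RefSeq start of Chrna9 lies inside the gene span of the deposited table, which begins further upstream. GC content was 74.8% for Tmie, 50% for Chrna9, 41.2% for Tmc1 and 61.2% for Ush1c. RefSeq promoters were matched for 32 of the 39 members, some with several start sites, 44 windows in all. CAGCTG was found in 9 of the 44 windows (20.5%), those of Barhl1, Cacna1d, Chrna9, Espn, Lhfpl5, Myo15 and Tmie, against 13% of 32851 promoters of the same length. The octamer ATGCAAAT, a motif of POU-domain proteins, was searched on both strands and found in 0 of the 44 windows and in 1.6% of all promoters. TAATTAAT, the core of a motif of the POU4 class, was found in the window of Grxcr1 and in 0.788% of all promoters. Cib2 and Tprn, which also separate the groups, had 0 matches to CAGCTG. Of the members with a match, Cacna1d, Espn, Lhfpl5, Myo15 and Tmie were lowest in WT replicate 1, while Barhl1 and Chrna9 were not. Over all tested members, with or without a match, 27 of 35 were lowest there. All of these are matches of letters within the window and say nothing of binding or of the differences between libraries.

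Usher and tip link genes showed no separation of the groups. Myo7a, the bundle motor, stood at 14.0, 24.3 and 20.2 CPM in WT and 21.4, 20.05 and 26.0 CPM in KO, with overlapping groups (log2 fold change 0.20, 95% interval −0.31 to 0.72, adjusted p = 0.632). The scaffold harmonin, Ush1c, stood at 5.08, 18.2 and 12.9 CPM in WT and 12.8, 10.7 and 14.2 CPM in KO, so that the KO libraries lay between the extremes of WT. Whrn, the scaffold whirlin of the stereocilia tip and ankle links, stood at 13.2, 16.8 and 20.2 CPM in WT and 14.6, 15.8 and 16.0 CPM in KO. The tip link cadherin Cdh23 stood at 3.02, 5.32 and 4.78 CPM in WT and 4.35, 3.97 and 5.14 CPM in KO. These 4 genes had fitted changes of −0.11 to 0.20.

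Of the remaining Usher genes, Pcdh15, the partner of Cdh23 in the tip link, stood at 1.87 to 4.17 CPM and Clrn1 at 1.56 to 4.64 CPM over the 6 libraries, with log2 fold changes of −0.29 and −0.38 (adjusted p = 0.656 and 0.647, edgeR). Ush1g held 0 to 7 counts, and the 0 of KO replicate 3 allows up to 0.162 CPM (3 counts). Adgrv1 stood at 4.86, 2.55 and 1.68 CPM in WT and 1.57, 1.87 and 2.33 CPM in KO (log2 fold change −0.66, SE 0.41, adjusted p = 0.415). Without WT replicate 1 its log2 fold change was −0.16. Its highest level was in WT replicate 1.

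Among stereocilia genes, Myo6 and Triobp had the most counts and narrow intervals around small fitted changes. Myo6 stood at 81.0, 107 and 102 CPM in WT and 96.8, 94.0 and 102 CPM in KO (log2 fold change 0.01, 95% interval −0.27 to 0.29). Triobp stood at 49.6, 46.5 and 49.8 CPM in WT and 43.8, 45.9 and 50.6 CPM in KO (−0.06, interval −0.26 to 0.14). Ptprq, a phosphatase of the shaft connectors, stood at 7.21, 24.6 and 15.3 CPM in WT and 20.8, 18.1 and 20.1 CPM in KO, and the groups overlapped. Tprn, also expressed outside hair cells, was lower in every KO library, at 13.3, 13.6 and 13.5 CPM against 17.6, 16.0 and 17.6 CPM in WT. That small difference (−0.34, SE 0.11) did not pass (adjusted p = 0.171).

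Atp2b2, the calcium pump of the stereocilia membrane, also a pump of neurons, stood at 25.8, 58.1 and 70.9 CPM in WT and 37.3, 36.4 and 28.3 CPM in KO. WT replicate 1 lay below all 3 KO libraries and the other WT libraries lay above them. Over all 6 libraries it did not pass (log2 fold change −0.60, SE 0.35, adjusted p = 0.382). Without WT replicate 1 it was the only member called lower (log2 fold change −0.93, adjusted p = 0.0201, against 5.46% of all genes called lower in that fit). The summed level of 15 spiral ganglion neuron markers was 1271, 2642 and 1832 CPM in WT and 1244, 1337 and 980 CPM in KO. It was thus also higher in WT replicates 2 and 3 than in the KO libraries, and its part in the level of Atp2b2 was not tested.

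The other stereocilia genes had fitted changes between −0.46 (Grxcr2) and 0.39 (Strc), with adjusted p-values of 0.595 to 0.925. The 6 tested were the stereocilin gene Strc, Loxhd1, Grxcr2, the actin bundler Espn and the motors Myo15 and Myo3b. They stood at 0.279 to 7.61 CPM. Grxcr1 held 4 to 12 counts and Myo3a 0 to 4 counts per library. The 0 counts of Myo3a in WT replicate 1 allow up to 0.168 CPM (3 counts).

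The outer hair cell genes did not follow each other. Ocm stood at 2.46, 18.5 and 11.4 CPM in WT and 9.18, 9.50 and 11.4 CPM in KO, so KO lay between the WT extremes (log2 fold change −0.11, SE 0.60, adjusted p = 0.94). Slc26a5, the motor protein prestin of outer hair cells, stood at 0.335, 0.313 and 0.814 CPM in WT and 0.740, 0.697 and 1.14 CPM in KO (0.79, SE 0.45, adjusted p = 0.381). It rested on 6, 6 and 16 counts in WT and 17, 16 and 21 in KO. WT replicate 2, with the highest Ocm level, held as few prestin counts as WT replicate 1, 6 each (95% exact Poisson interval 2.20 to 13.1). Ocm is also made by a subset of vestibular hair cells, and the labels do not say how much cochlea and vestibule each library held.

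None of the 4 ribbon synapse genes separated the genotypes. Otoferlin, Otof, the calcium sensor of glutamate release, stood at 6.09, 20.2 and 14.9 CPM in WT and 13.8, 10.9 and 15.5 CPM in KO. Slc17a8, which loads vesicles with glutamate, stood at 3.91, 11.2 and 5.90 CPM in WT and 6.27, 6.84 and 5.62 CPM in KO. Cabp2, a modulator of the presynaptic calcium channel, stood at 1.01, 2.97 and 1.47 CPM in WT and 1.26, 2.35 and 1.89 CPM in KO. Cacna1d, the channel itself and a gene of many tissues, stood at 17.4, 21.0 and 20.7 CPM in WT and 19.0, 17.5 and 23.0 CPM in KO. In each case the groups overlapped, with fitted changes of −0.17 to 0.01 and adjusted p-values of 0.835 to 0.992. Only for Cacna1d was the interval narrow, from −0.34 to 0.35.

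Efferent fibres from the brainstem act on outer hair cells through a receptor made of α9 and α10 subunits. Chrna9, the α9 gene (ENSMUSG00000029205, mm10 chromosome 5, 65934921 to 65977326, plus strand), stood at 2.01, 1.77 and 4.07 CPM in WT and 0.740, 0.915 and 1.46 CPM in KO. Every KO library was lower than every WT library, and the fitted difference was 2.54-fold (log2 fold change −1.34, SE 0.42, 95% interval −2.36 to −0.33). It did not pass with edgeR (adjusted p = 0.172) or DESeq2 (adjusted p = 0.0695). The counts behind it were 36, 34 and 80 in WT and 17, 21 and 27 in KO, and without WT replicate 3 the log2 fold change was −0.87 (adjusted p = 0.301). WT replicate 3 and WT replicate 1 also held the most skeletal muscle RNA, at 12472 and 7997 CPM summed over 19 markers, against 265 CPM in WT replicate 2 and 86.2 to 1033 CPM in KO. In the libraries with less muscle RNA, Chrna9 stood at 1.77 CPM in WT replicate 2 and 0.740 to 1.46 CPM in the KO libraries. WT is a single library there. Its 95% exact Poisson interval (1.23 to 2.48 CPM, counting error only) overlapped that of KO replicate 3 (0.962 to 2.12 CPM). The part of muscle in the level of Chrna9 was not tested.

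Chrna10, the α10 gene, did not share that order. It stood at 1.28, 3.08 and 3.46 CPM in WT and 2.26, 2.05 and 2.22 CPM in KO, and the groups overlapped (log2 fold change −0.26, adjusted p = 0.72). Its level is uncertain, since 39% of its exon length overlaps the muscle gene Art1 on the opposite strand. Art1 held 414, 208 and 559 counts in WT and 87, 126 and 58 in KO, while Chrna10 held 23, 59 and 68 and 52, 47 and 41. The ratio of Chrna9 to Chrna10 counts was 1.57, 0.576 and 1.18 in WT and 0.327, 0.447 and 0.659 in KO.

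WT replicate 1 was the lowest of the 6 libraries for 27 of the 35 tested members, against 29.6% of all genes tested. Its level was under 50% of the median of the other 5 libraries for 13 members, against 6.72% of all genes. The median log2 ratio of WT replicate 1 to that median was −0.68 over the members and −0.01 over all genes. This library was noticed in the data, so these values are a description with no test. The lowest ratios were those of Tmc1 (−3.41), Strc (−2.36), Tmc2 (−2.22), Ocm (−2.21), Myo3b (−1.86) and Ptprq (−1.48). Several of these rest on few counts in WT replicate 1. Tmc1 held 5 counts and Tmc2 held 2 there, and Strc and Myo3b held 0.0909% and 0.164% of the 5502 member counts. The 8 members not lowest there were Barhl1, Cib2, Adgrv1, Tprn, Triobp, Chrna9, Pcdh15 and Slc26a5, of which the first 4 were highest in WT replicate 1 (28.8% of all genes). Over the 35 tested members, KO replicate 1 was the lowest library for 5 (9.5% of all genes) and KO replicate 3 for 2 (17.1%). WT replicate 2 was lowest for 1 (16.2%), and WT replicate 3 (18.7%) and KO replicate 2 (8.83%) were never lowest. WT replicate 2 was the highest library for 18 members.

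**Figure D4:**
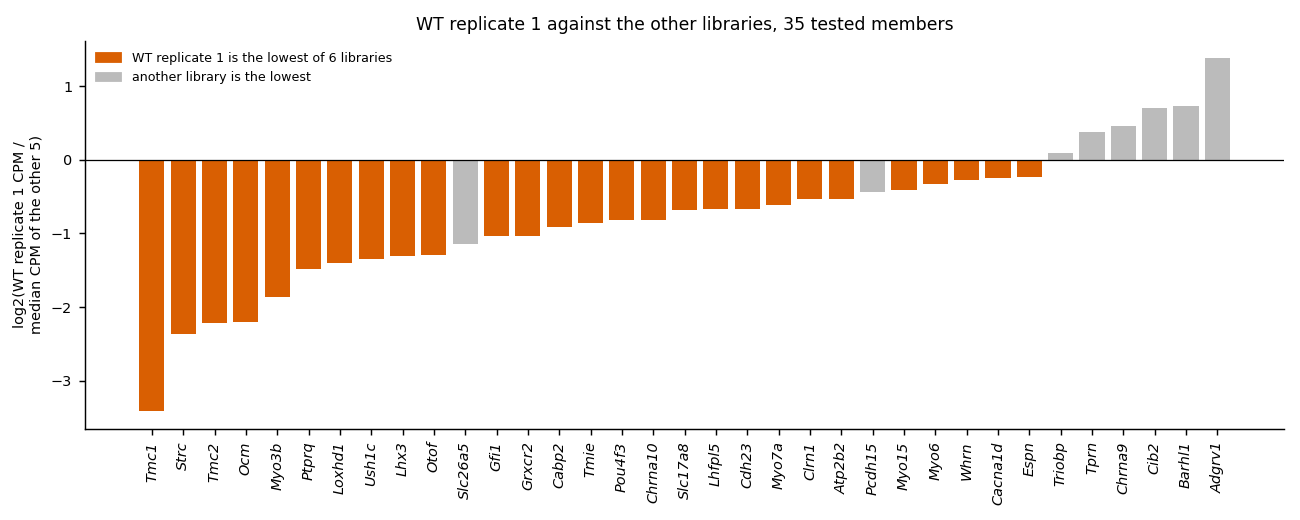
Log2 ratio of the CPM in WT replicate 1 to the median CPM of the other 5 libraries, for the 35 tested members in rising order. Orange bars are the 27 members for which WT replicate 1 was the lowest library; the ratio runs from −3.41 for Tmc1 to 1.38 for Adgrv1.

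Some members kept their proportion to Otof across libraries better than their level, and others did not. The CPM of Ush1c ranged 3.59-fold over the 6 libraries, whereas its ratio to Otof ranged 1.17-fold, from 0.835 to 0.976. For Gfi1 the level ranged 2.46-fold and the ratio 1.40-fold, and for Ptprq 3.41-fold and 1.62-fold. The opposite held for Triobp (1.16-fold against 3.53-fold), Barhl1 (2.09-fold against 6.70-fold) and Adgrv1 (3.10-fold against 7.11-fold). Over the 34 tested members beside Otof, the ratio was narrower than the level for 19 and wider for 15. This is a description of 6 libraries in which the low WT replicate 1 sets much of the range.

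Other cell types in WT replicate 1 also differed. Of 16 supporting cell and tectorial membrane markers, 10 were lowest there, with a summed level of 791 CPM against 995 to 1296 CPM in the other libraries. All 13 neutrophil and marrow markers were lowest there, with a sum of 224 CPM against 938 to 1341 CPM. Gfi1 and Ocm are also transcribed in myeloid cells, and the part of these cells in their levels was not tested. Of the neuron markers only 3 of 15 were lowest in that library. The 4 otoconia and vestibular epithelium markers summed to 138 CPM there and to 123 to 162 CPM elsewhere. The 15 cerebellum and brain markers summed to 257 CPM there and to 264 to 458 CPM in the other libraries. The 11 Schwann cell and myelin markers summed to 4446, 8131 and 7268 CPM in WT and 3164, 3552 and 3118 CPM in KO, and the 8 red cell markers to 2033, 7941 and 6996 CPM and 2113, 2617 and 3396 CPM. No marker in any of these lists was at 0 in all libraries.

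**Figure D5:**
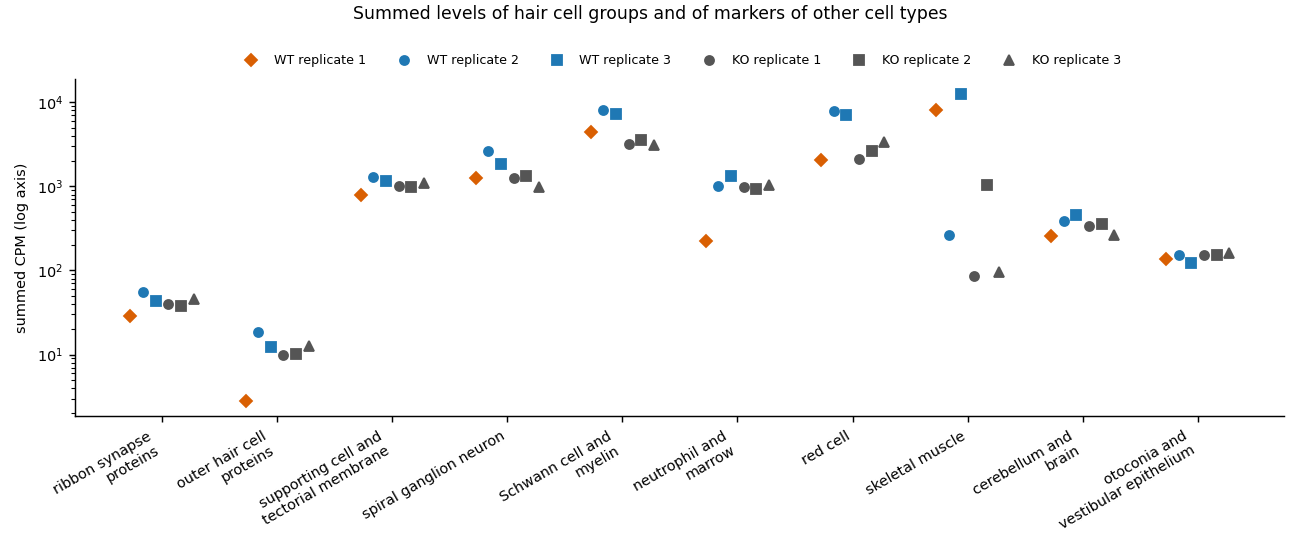
Summed CPM (log axis) of the ribbon synapse and outer hair cell members and of markers of other cell types, with 1 point per library. WT replicate 1 (orange) is lowest for both hair cell groups, supporting cells and neutrophils. It is also lowest, close to the next library, for red cells and for cerebellum and brain. Skeletal muscle markers run from 86.2 CPM in KO replicate 1 to 12472 CPM in WT replicate 3.

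Without WT replicate 1, fitted changes were below 0 for 30 of the 35 members, with a median of −0.28, against 50.5% of all genes and a median of −0.003. That fit called Tmie higher and Atp2b2 lower, 2 members of 35, against 9.06% of all genes (3.6% higher and 5.46% lower). The KO libraries lay below both remaining WT libraries for 12 of 35 members (22.8% of all genes) and above them for Tmie alone (24.2% of all genes). Without WT replicate 2, the library with the highest hair cell levels, changes were below 0 for 12 members and the median was 0.21, and no member passed, against 3.78% of all genes called (1.41% higher and 2.37% lower). The direction of the members as a group therefore turned on which WT library was left out.

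A wider set of 54 other hair cell genes was examined in 3 lists, of which 53 were tested. None passed with edgeR, and 12 had an unadjusted p under 0.05 (19.6% of all genes). DESeq2 called 1 higher and 7 lower of 50 with an adjusted p (3.61% and 5.43% of all genes). Without WT replicate 1, edgeR called 1 higher and 9 lower (3.6% and 5.46% of all genes). Fitted changes were below 0 for 37 of 53, with a median of −0.16.

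Of the 10 other regulators, 7 had changes below 0. The most abundant was the LIM-domain gene Lmo4, at 127, 81.2 and 88.5 CPM in WT and 91.1, 87.9 and 84.9 CPM in KO. Next came Tbx2, which sets inner against outer hair cell fate, with 51.9 to 58.7 CPM (WT) and 49.97 to 52.6 CPM (KO).

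Of the 25 other hair bundle genes tested, 14 had changes below 0. The abundant genes Rdx, a linker of actin to the membrane, and Gnai3, a G protein subunit that positions the bundle, are used by most cells, and stood at 216 to 233 and 161 to 235 CPM. Vezt, an adhesion protein, was higher in every KO library, at 52.8, 52.7 and 52.3 CPM against 38.4, 43.2 and 39.2 CPM in WT (log2 fold change 0.39, SE 0.08). It passed with DESeq2 (adjusted p = 0.00569) and not with edgeR (adjusted p = 0.091). Clic5 and Xirp2 are genes of stereocilia and of striated muscle. Clic5 stood at 28.9, 17.2 and 35.2 CPM in WT and 11.8, 12.6 and 12.4 CPM in KO. Xirp2 stood at 32.8, 7.40 and 81.8 CPM in WT and 4.61, 9.50 and 5.03 CPM in KO. Both ran in the order of the muscle markers within WT, and the part of muscle in them was not tested. DESeq2 called both lower, with Eps8l2 and Minar2. Eps8l2 shares 32.2% of its exon length with B230206H07Rik on the opposite strand. That gene held 251, 266 and 399 counts in WT and 203, 163 and 159 in KO. The part of shared reads in the level of Eps8l2 was not tested. Kncn, which encodes the hair cell protein kinocilin, stood at 0.559 CPM in WT replicate 1 and 2.54 to 4.38 CPM in the other libraries.

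Of the 18 other synapse and channel genes, 16 had changes below 0, with a median of −0.45. Nptn, a partner of the Atp2b2 pump, and Calb2, the calcium buffer calretinin of hair cells and neurons, were the most abundant. Nptn stood at 309, 375 and 320 CPM in WT and 330, 323 and 319 CPM in KO, and Calb2 at 25.3, 86.0 and 75.3 CPM and 45.8, 39.8 and 40.8 CPM. DESeq2 called the mechanosensitive channel gene Piezo2 lower (adjusted p = 0.0356). Without WT replicate 1, edgeR called 6 of the 18 genes lower, against 5.46% of all genes in that fit. Among these 6 were Calb2 and the presynaptic genes Bsn, Pclo, Rims2 and Cacna2d2, all of which neurons also express. The neuron markers had changes below 0 for 15 of 15 genes, with a median of −0.65, and their part in the values of the synapse genes was not tested.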

How the data were processed

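Poly(A)-selected, strand-marking libraries were made from total RNA of inner ear, per the labels' protocols. Tools listed in the submitters' processing notes are HISAT2, HTSeq, Trimmomatic and Cufflinks, with the build mm10. Tool versions, annotation release and strand setting were not given in the sources used here. Raw read counts per gene were deposited by the authors and used unchanged. All 39 members have the same coordinates in GENCODE M21, which gave exon lengths and overlaps.

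Genes were filtered with filterByExpr (minimum count 10) of edgeR 4.0.16, libraries scaled by TMM, and KO compared with WT (3 libraries each) by glmQLFit and glmQLFTest with Benjamini-Hochberg adjustment over 19687 genes at 0.05. A count of 0 allows 3 counts, or 0.131 to 0.168 CPM, and intervals on counts cover counting error only. Other cell types were followed by sums of marker genes, those of Schwann and red cells included. Scripts were tested on simulated data.

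Values per library were given for members called by DESeq2 1.42.0 or without 1 library and for the 4 most abundant of each role. Of the other genes the 2 most abundant of each list were named, and further genes were chosen with their values in view. The members and lists were chosen with earlier results of these data known. Alternatives were RLE and upper-quartile scaling, other filters, DESeq2, limma-voom (limma 3.58.1), a block for replicate number, removal of muscle, haemoglobin and mitochondrial genes, Xist presence as a term and leaving out each library. Some of the other hair cell genes are counted in their lists and not reported here.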

Additional observations from a re-analysis of the deposited data

How the results depend on the processing

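With DESeq2 the number of members past the threshold was 1 higher and 0 lower, and the other genes numbered 1 higher and 7 lower, against 3.61% higher and 5.43% lower of all genes. Leaving out each library in turn gave 0 to 1 member higher and 0 to 1 lower, 0 to 1 other gene higher and 0 to 9 lower, and 12 to 30 members with a change below 0. Over all genes these fits called 9.06% without WT replicate 1, 3.78% without WT replicate 2 and 0 without any other library, so the zeros are not particular to the members. The median change of the members was −0.28 without WT replicate 1 and 0.21 without WT replicate 2, and the cause was not tested. With the replicate number as a block 17 members had a change below 0 and none passed. Deviations of libraries with the same number correlated at −0.13, −0.29 and −0.19, so the numbers were not taken as pairs; the block left 1 gene called among all genes, against 78. Of 522 values of single members under the 15 alternatives, 3 gained a call (Tmie with DESeq2, Tmie and Atp2b2 without WT replicate 1) and no other member value passed. The sign differed from that in all 6 libraries for 40 of the 522, none of them a called value, in 20 members. Of these, 10 came without WT replicate 1 and 8 without WT replicate 2. For 37 of the 40 the move was under 0.542, the median over members of the SD of log2 CPM within groups. That single value is not the spread of each member. The other 3 were Pou4f3, Clrn1 and Ocm without WT replicate 2. WT replicate 1 was lowest for 27 to 28 members under the scalings tried. Counts under 25 in every library limit Atoh1, Ush1g, Grxcr1, Myo3a, Lhx3, Tmc2 and Slc26a5. Further members, among them Tmc1, Strc and Myo3b, held counts under 25 in WT replicate 1.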
